A study of Homo sapiens with 8 samples.

Results

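The genes of the ISG15 conjugation system were examined in the human pancreatic cancer line Panc10.05, which is an established cell line, and in cells derived from it that tolerate indisulam. This drug is a molecular glue: it joins RBM39, a splicing factor, to a ubiquitin ligase that contains DCAF15, and RBM39 is then degraded. The genes were taken by symbol, as the known parts of this system: ISG15, UBA7, UBE2L6, HERC5, HERC6 and USP18, which are 6 of the 60675 genes counted, and all 6 were detected well enough to be tested. RNA was sequenced in 8 libraries that formed 4 groups of 2: parental untreated, parental indisulam (2 µM for 18 h), resistant untreated and resistant indisulam. Per the study's methods, the resistant cells were raised on increasing doses of the drug, the treated ones stayed on 2 µM without a break, and the untreated ones had been taken off the drug for a holiday. The untreated resistant cells thus still carry a history of the drug that untreated parental cells lack. Per the labels the culture and treatment notes name A549 cells, while the titles name Panc10.05, which was taken as the cell line. The study calls the paired libraries technical replicates, so p-values concern the spread between these libraries.

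ISG15 is a small protein made of a pair of ubiquitin-like folds that is joined to other proteins much as ubiquitin is. UBA7 is its activating enzyme (E1), UBE2L6 its main conjugating enzyme (E2), and HERC5 the main ligase (E3) in human cells. HERC6 is the close relative of HERC5 that serves as the main ISG15 ligase in mice. USP18 removes ISG15 from its targets and, independently of that activity, binds the interferon receptor subunit IFNAR2 and dampens interferon signalling. All of these genes are known to be induced by type I interferon through transcription factors, STAT2 and IRF9 among them, that bind interferon-stimulated response elements in promoters.

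Promoter sequence from RefSeq (GRCh38.p14, 250 bases before to 50 after a start site) was available for ISG15, HERC5, HERC6 and UBE2L6, the last with 2 start sites. UBA7 and USP18 were not among the entries. The core of the response element, searched as GAAA, any 2 bases and GAAA again, or as TTTC, any 2 bases and TTTC for the other strand, was found in 3.57% of all 35116 promoter entries, and 0.259% held at least 2 matches, overlapping ones included. ISG15 had 2 matches that overlap each other, starting 113 and 107 bases before the start site. HERC5 had 3 matches, 125, 119 and 74 bases before the start site, of which the first pair overlap. No match was present in these windows for HERC6 or for either UBE2L6 start site. The core of the gamma-activated site, TTCNNNGAA, which reads the same on both strands, was in 7.66% of all entries and in none of those of the members. The windows with matches are shown 5′ to 3′ on the plus strand, which is the strand of both genes, with the matched letters in capitals. They lie at chr1:1013359-1013424 for ISG15 and chr4:88456969-88457079 for HERC5. The RefSeq starts of ISG15, HERC6 and UBE2L6 lie inside their GENCODE 44 genes, which begin further upstream. The windows may thus leave out sequence before other starts of these genes.
ISG15: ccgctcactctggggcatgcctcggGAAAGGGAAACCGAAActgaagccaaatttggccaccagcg
HERC5: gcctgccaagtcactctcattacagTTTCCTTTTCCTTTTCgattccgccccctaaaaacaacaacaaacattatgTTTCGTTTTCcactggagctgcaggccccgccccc

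Reads assigned to genes numbered 65266253 to 108002436 per library. Libraries of a group were further apart than sampling of reads would leave them (mean chi-square per gene 1.95 to 5.8), and each was kept as a replicate. The ductal markers KRT7, KRT8, KRT18, KRT19, EPCAM, CDH1 and MUC1 summed to between 6330 and 12200 CPM, the reads of a gene relative to all gene reads of its library, scaled here with the trimmed mean of M values (TMM). All 7 were called higher in resistant than in parental untreated cells. The white blood cell markers PTPRC and CD3E had no read in any library. The 6 markers of these cells summed to 0.29 to 0.338 CPM in parental untreated, 0.31 to 0.32 in parental indisulam, 0.621 to 1.0 in resistant untreated and 1.41 to 1.51 CPM in resistant indisulam libraries. Of these, ITGAM was called higher in resistant untreated cells (2.77, adjusted p 1.1e-05). On the drug, ITGAM and CD14 were called higher in resistant than in parental cells (4.29 and 1.61, adjusted p 1.7e-08 and 0.0007). CD68 had the opposite sign in both comparisons and was not called (-0.99 and -0.81, adjusted p 0.179 and 0.168). ITGAM made up most of the sums in resistant cells, at 0.523 CPM off and 1.04 CPM on the drug. Summed fibroblast markers were at 1.35 to 1.89 CPM in the first 3 groups and 3.97 to 4.03 CPM in resistant indisulam cells, nearly all of it COL1A1, with DCN and LUM at 0. Endothelial markers summed to 0.207 to 0.426 CPM. The part of these shifts in the results below was not tested. In bulk RNA, fewer cells that express a gene and less RNA per cell cannot be told apart.

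To determine whether the lines differed off the drug, resistant untreated cells, after their drug holiday, were compared with parental untreated cells. All 6 genes were higher in the resistant line, by 3.62-fold for UBA7 to 24.0-fold for USP18. Calls were made with the quasi-likelihood test of edgeR, at a Benjamini-Hochberg adjusted p under 0.05 over all 16661 genes tested. Across those genes, 30.3% were called higher, and 6.93% were called higher by more than 1 log2 unit, as all 6 members were. The median log2 fold change of the members was 2.83, beside -0.02 over all genes tested.

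ISG15, the modifier itself (ENSG00000187608, chromosome 1, 1001138 to 1014540, plus strand), was at 13.4 and 12.4 CPM in parental untreated and 62.3 and 69.1 CPM in resistant untreated libraries. The difference was 2.34 log2 units (SE 0.055, adjusted p 5.9e-15), so the modifier transcript was 5.07-fold higher in the resistant line.

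UBA7, the E1 enzyme (ENSG00000182179, chromosome 3, 49805209 to 49813953, minus strand), was weakly expressed, with 162 and 151 reads in the parental and 391 and 338 reads in the resistant untreated libraries. This was 1.48 and 1.41 CPM against 5.28 and 5.2 CPM, and the difference of 1.86 log2 units (SE 0.104, adjusted p 1.4e-13) was the smallest of the 6. UBE2L6, the E2 enzyme (ENSG00000156587, chromosome 11, 57551656 to 57568284, minus strand), stood at 5.96 and 5.81 CPM in parental and 63.5 and 58.5 CPM in resistant libraries. The difference was 3.37 log2 units (SE 0.052, adjusted p 1.3e-23), so the conjugating enzyme differed by 10.4-fold and the activating enzyme by 3.62-fold.

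The ligase HERC5 (ENSG00000138646, chromosome 4, 88457119 to 88506163, plus strand) was at 2.41 and 2.58 CPM in parental and 17.1 and 15.7 CPM in resistant untreated libraries. Its log2 fold change was 2.72 (SE 0.076, adjusted p 2.1e-19). HERC6 (ENSG00000138642, chromosome 4, 88378739 to 88443097, plus strand), which lies 14 kb before HERC5, rose from 5.9 and 5.61 to 44 and 43.8 CPM, or 2.93 log2 units (SE 0.05, adjusted p 1e-23). The ligase genes were thus 6.59-fold (HERC5) and 7.63-fold (HERC6) higher.

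USP18, the deconjugating protease (ENSG00000184979, chromosome 22, 18150118 to 18177397, plus strand), differed most. It had 123 and 124 reads in parental and 2011 and 1800 reads in resistant untreated libraries, or 1.12 and 1.16 against 27.1 and 27.7 CPM. The log2 fold change was 4.58 (SE 0.07, adjusted p 1.3e-24), and 116 of the 16661 genes tested had a larger one. USP41 (ENSG00000161133, chromosome 22, 20363621 to 20377251) is a near-copy of USP18 and held 69 reads over all libraries against 5034 for USP18. Reads of low mapping quality were listed apart in the deposited files and are in neither count.

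**Figure D1:**
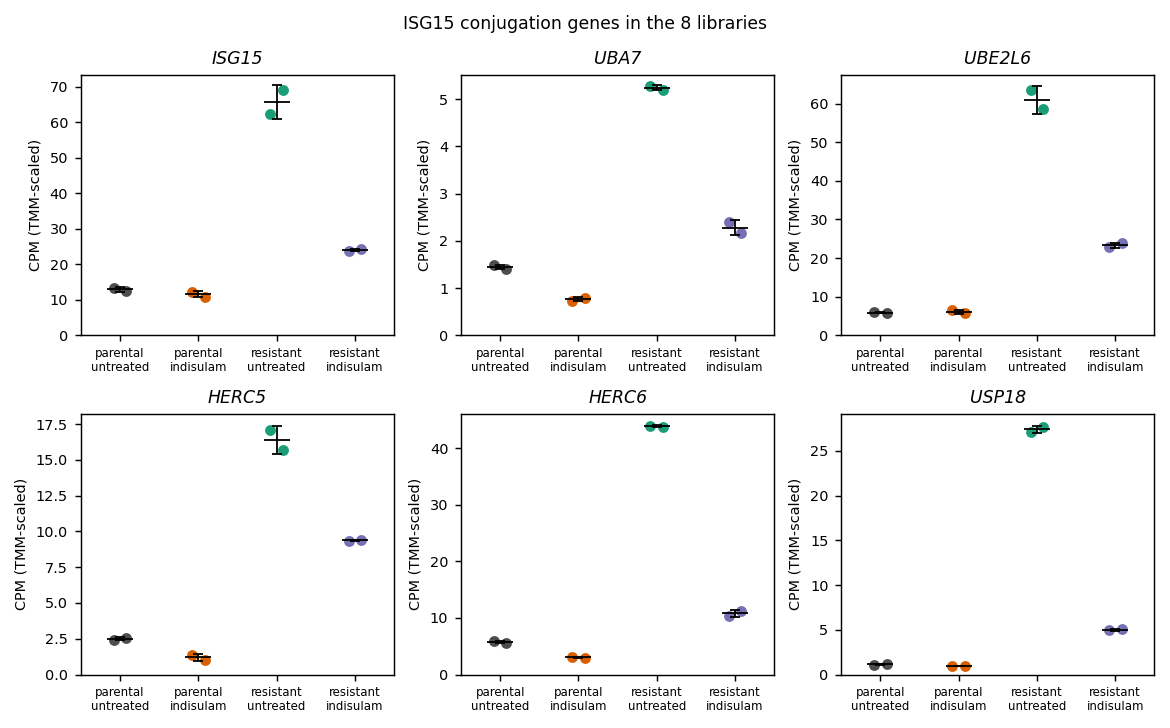
Expression of the 6 genes in CPM (vertical axis, linear, from 0) in the 4 groups of cells. Points are libraries, bars are the mean and SD (n = 2). The resistant untreated libraries are the highest for every gene, and the resistant indisulam libraries lie between them and both parental groups.

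Next, resistant cells kept on the drug were compared with resistant cells after the drug holiday. The treated cells had not come off the drug. In this comparison the words fell and rose thus give only the direction of the difference. All 6 genes were lower on the drug, by 1.75-fold for HERC5 to 5.45-fold for USP18. Of all genes tested, 25.8% were called lower, and 1.46% were lower by more than 1 log2 unit, as were all members but HERC5. The median log2 fold change was -1.42 for the members and 0.01 for all genes tested. This comparison shares the resistant untreated libraries with the preceding one, so the values of both are given side by side and were not correlated.

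USP18 fell most here as well, to 4.94 and 5.11 CPM in the resistant indisulam libraries (log2 fold change -2.45, SE 0.058, adjusted p 3.7e-20). Only 19 tested genes had a more negative change. HERC6 fell to 10.3 and 11.2 CPM (-2.02, SE 0.048, adjusted p 3.5e-20). ISG15 fell to 23.8 and 24.3 CPM (-1.45, SE 0.053, adjusted p 5.8e-12), and its partner enzyme UBE2L6 fell in near step, to 22.8 and 23.8 CPM (-1.39, SE 0.045, adjusted p 8.1e-17). UBA7 fell to 2.39 and 2.16 CPM (-1.21, SE 0.102, adjusted p 7.6e-10). The ligase HERC5 fell least, to 9.36 and 9.41 CPM (-0.81, SE 0.066, adjusted p 4e-10).

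Resistant cells kept on the drug were also above parental levels. Set against parental untreated cells, they were higher for all 6 genes, whereas 32.2% of the genes tested were called higher in that comparison. The log2 fold changes were 2.14 for USP18, 1.99 for UBE2L6, 1.91 for HERC5, 0.91 for HERC6, 0.90 for ISG15 and 0.64 for UBA7 (adjusted p from 1.4e-18 for UBE2L6 to 3.3e-05 for UBA7). The log2 difference between resistant cells off and on the drug was set against that between the untreated lines. This share was 69.0% for HERC6, 65.3% for UBA7 and 61.8% for ISG15. It was 53.4% for USP18, 41.2% for UBE2L6 and 29.8% for HERC5. Both terms of the share hold the resistant untreated libraries and it has no error, so it is a description.

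To ask what 18 h of the drug does in cells that have not adapted to it, parental indisulam libraries were compared with parental untreated ones. Here the members parted. HERC5, UBA7 and HERC6 fell by about 1 log2 unit, ISG15 moved by an amount at the edge of the threshold, and UBE2L6 and USP18 were not called. In all, 4 of 6 were called lower and none higher, against 26.6% of all genes called lower. The median log2 fold change was -0.56, and 0.01 over all genes tested.

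HERC5 went from 2.41 and 2.58 to 1.36 and 1.03 CPM, on 102 and 80 reads in the treated libraries (log2 fold change -1.06, SE 0.122, adjusted p 9.9e-08). UBA7 went from 1.48 and 1.41 to 0.734 and 0.788 CPM, on 55 and 61 reads (-0.93, SE 0.145, adjusted p 8.3e-06). HERC6 went from 5.9 and 5.61 to 3.09 and 3.01 CPM (-0.92, SE 0.075, adjusted p 5.7e-10). These 3, and also ISG15 and USP18, were lower in both treated libraries than in either untreated one. How many of all genes tested were so was not counted. This separation is thus only a description and lends no weight to the changes of ISG15 and USP18.

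ISG15 was at 12.2 and 10.9 CPM in the treated parental libraries (log2 fold change -0.16, SE 0.067, adjusted p 0.0499). That call was lost with the replicate block (adjusted p 0.0773), with DESeq2, without parental untreated replicate 1 (-0.10) and without parental indisulam replicate 2 (-0.11). The adjusted p ranged from 0.00079 to 0.276 over the alternatives. UBE2L6 was at 6.47 and 5.77 CPM (0.06, SE 0.072, adjusted p 0.528), with treated and untreated libraries that overlapped, and USP18 was at 1.0 and 0.994 CPM on 75 and 77 reads (-0.20, SE 0.128, adjusted p 0.255). A p above the threshold does not show that these genes stayed level, and for USP18 the counts were low.

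The drug responses of the lines were then compared with each other by a test of the interaction. For the resistant line this response is the difference between cells kept on the drug and cells after the drug holiday. The drug response was more negative in resistant than in parental cells for 4 members: USP18 by -2.25 (SE 0.15, adjusted p 5.4e-11), UBE2L6 by -1.44 (SE 0.086, adjusted p 1.5e-11), ISG15 by -1.28 (SE 0.086, adjusted p 1.9e-08) and HERC6 by -1.11 log2 units (SE 0.093, adjusted p 2.5e-09). Of all genes tested, 27.5% had a negative call and 0.774% one beyond 1 log2 unit. The difference was not called for UBA7 (-0.29, SE 0.183, adjusted p 0.202) or HERC5 (0.25, SE 0.141, adjusted p 0.144). Without parental indisulam replicate 1 that of HERC5 was called (0.48, adjusted p 0.0178), in the positive direction. The neighbouring ligase genes thus had interaction estimates of opposite sign.

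On the drug, all members were higher in resistant than in parental cells, with 34.6% of all genes called higher. The order was not that of the untreated cells. HERC5 had the largest difference (log2 fold change 2.97, SE 0.101, adjusted p 8.5e-18), from 1.36 and 1.03 CPM in parental to 9.36 and 9.41 CPM in resistant cells. USP18 followed with 2.33, UBE2L6 with 1.93, HERC6 with 1.82, UBA7 with 1.57 and ISG15 with 1.06 log2 units.

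**Figure D2:**
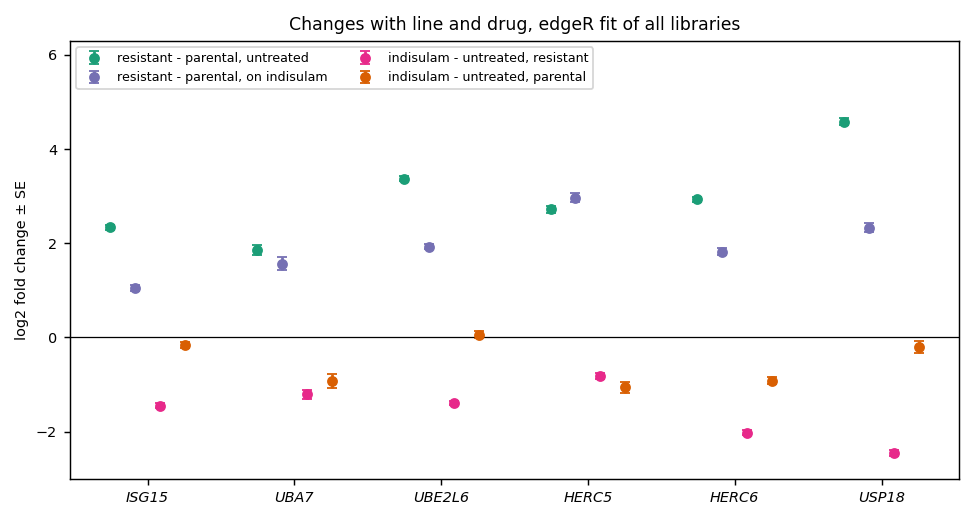
Log2 fold changes of the 6 genes (vertical axis) in the comparisons of the lines and of the drug, from the fit of all 8 libraries, with bars for the SE. The differences between the lines lie above 0 for every gene, the drug changes in resistant cells lie below 0, and those in parental cells range from -1.06 for HERC5 to 0.06 for UBE2L6.

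The make-up of the system was then compared per length, as CPM per kb of exonic sequence. ISG15 was the highest in every group. In parental cells it stood at 14.9 ± 0.826 CPM per kb off and 13.3 ± 0.991 on the drug, and in resistant cells at 75.8 ± 5.56 off and 27.7 ± 0.354 on it (SD, n = 2). UBE2L6 came second throughout, with 2.85 ± 0.05 CPM per kb (SD, n = 2) in untreated cells of the parental line and 29.6 ± 1.74 in those of the resistant line. ISG15 thus exceeded its E2 by 5.23-fold in parental untreated and by 2.56-fold in resistant untreated cells. The lower ranks changed places. In parental untreated cells HERC6 (0.996), HERC5 (0.524), UBA7 (0.318) and USP18 (0.279 CPM per kb) followed in that order. In resistant untreated cells USP18 (6.7) came after HERC6 (7.6) and before HERC5 (3.45 CPM per kb), and UBA7 (1.15) was last. On the drug, HERC5 (1.97) and HERC6 (1.86 CPM per kb) were nearly level in resistant cells, and with the longest transcript as length HERC6 (2.84) was above HERC5 (2.67). In all 4 groups the libraries of neighbours in the order did not overlap, except HERC5 (0.251) and USP18 (0.244 CPM per kb) in parental indisulam cells.

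The reads of each gene per 100 ISG15 reads followed the balance of the members in each library. For USP18 the parental libraries held 8.36 and 9.34 such reads off the drug and 8.22 and 9.08 on it, and the resistant libraries 43.6 and 40.1 off it and 20.7 and 21.0 on it. The protease transcript was therefore more abundant relative to the modifier in resistant than in parental cells, with means of 41.9 against 8.85 off and 20.9 against 8.65 on the drug and no overlap of the libraries. The parental groups overlapped. UBE2L6 had 44.3 and 46.8 reads per 100 in the parental libraries off the drug, 53.2 and 52.7 on it, and in the resistant libraries 102.0 and 84.6 off it and 95.5 and 98.0 on it. E2 relative to modifier was higher in every resistant library than in any parental one, and within the resistant line the libraries off and on the drug overlapped.

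HERC5 had 17.9 and 20.8 reads per 100 ISG15 reads in parental untreated and 11.2 and 9.43 in parental indisulam libraries. The resistant libraries had 27.5 and 22.8 off the drug and 39.3 and 38.8 on it. Relative to ISG15 this ligase was thus lower on the drug in parental cells and higher on it in resistant cells. HERC6 was lower on the drug in both lines, with 43.9 and 45.1 against 25.4 and 27.5 in parental and 70.7 and 63.4 against 43.2 and 46.2 in resistant libraries. Per 100 HERC5 reads, HERC6 had 217 to 291 in 6 libraries, namely 245 and 217 (parental untreated), 227 and 291 (parental indisulam) and 257 and 278 (resistant untreated), but 110 and 119 in resistant indisulam libraries. UBA7 varied least relative to ISG15, between 6.03 and 11.4 reads per 100.

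**Figure D3:**
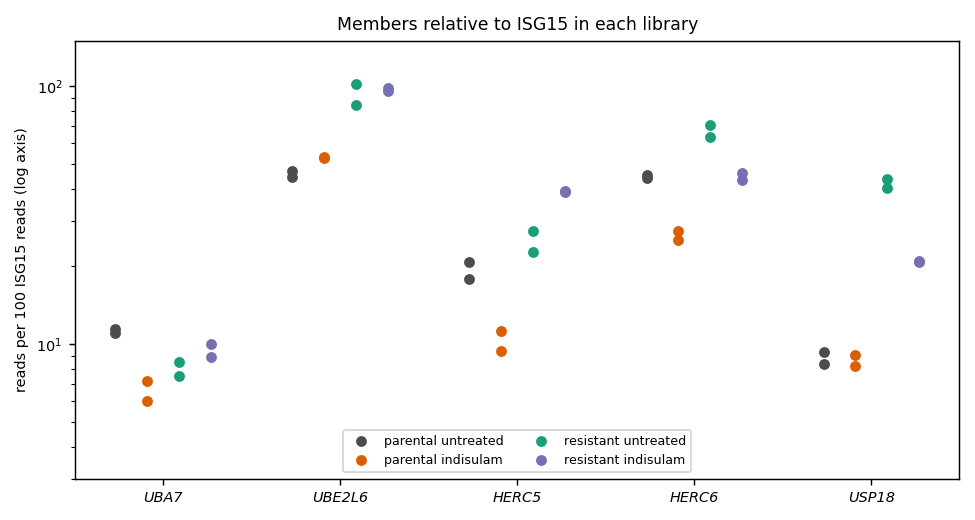
Reads of each gene per 100 ISG15 reads in each library (log axis), coloured by group. USP18 is at 8.22 to 9.34 in the 4 parental libraries and at 20.7 to 43.6 in the 4 resistant ones, and UBE2L6 is at 44.3 to 53.2 and at 84.6 to 102.0.

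Across the 8 libraries, the profiles of the members, as log2 CPM centred on each gene's mean, had pairwise Pearson r of 0.922 (ISG15 and HERC5) to 0.995 (ISG15 and USP18). The 8 libraries form 4 groups, so these values describe the group pattern and carry no test. The root mean square difference of the centred profiles was smallest between ISG15 and UBA7 (0.291 log2 units) and largest between UBA7 and USP18 (1.01). Among 10830 other genes that averaged 1 log2 CPM or more, the nearest profiles to ISG15 were those of HELZ2 (difference 0.083 log2 units, r 0.997) and IFI35 (0.122, r 0.993). Nearest to UBE2L6 were PARP14 (0.14, r 0.996) and IFI16 (0.207, r 0.998), and nearest to UBA7 were PARP12 (0.157, r 0.99) and BISPR (0.215, r 0.977). HERC5 lay nearest to OASL (0.161, r 0.996) and DDX60L (0.216, r 0.99), and HERC6 to SAMD9 (0.215, r 0.996) and IFIT1 (0.22, r 0.996). USP18 lay nearest to SP110 (0.15, r 0.997) and OAS3 (0.321, r 0.994). Each of the 12 genes was chosen for its likeness, so the likeness is a description.

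The neighbours of the members on the chromosome were examined to see whether whole regions moved. HES4, 0.966 kb before ISG15 on the other strand, was at 3.58 ± 0.0243 CPM in the untreated parental line and 3.7 ± 0.425 CPM in the untreated resistant line (SD, n = 2) and was not called (0.04, adjusted p 0.717). AGRN, 5.58 kb beyond ISG15, was higher in resistant untreated cells (0.30, adjusted p 0.0474). It fell with the drug in both lines, by 0.74 log2 units in parental and 0.65 in resistant cells (adjusted p 0.0023 and 0.0044). In these comparisons its calls had the direction of those of ISG15. In resistant cells on the drug against untreated parental cells, AGRN was lower (-0.35, adjusted p 0.0281) and ISG15 higher (0.9). TRAIP next to UBA7 (0.06, adjusted p 0.288), TIMM10 and CLP1 beside UBE2L6 (-0.04 and 0.07, adjusted p 0.319 and 0.13) and PEX26 beside USP18 (0.05, adjusted p 0.148) were not called between the untreated lines. INKA1, 0.179 kb from UBA7, was at 0.138 to 0.199 CPM in untreated cells and was not called (-0.54, adjusted p 0.225), and RIMBP3, far beyond USP18, was called from 0.162 to 0.304 CPM (0.90, adjusted p 0.0247).

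Around the HERC genes the picture was mixed. PPM1K, a mitochondrial phosphatase gene 94.0 kb before HERC6, was higher in resistant untreated cells (1.09 ± 0.0861 against 3.56 ± 0.219 CPM, SD, n = 2, log2 fold change 1.71, adjusted p 2e-11). In resistant cells on the drug its level was 3.3 ± 0.0259 CPM (-0.11, adjusted p 0.426), while HERC6 fell by 2.02 and HERC5 by 0.81 log2 units. FAM13A, 220.0 kb beyond HERC5, was not called between the untreated lines (0.11, adjusted p 0.0614). HERC3 lies in that gap under a pair of gene identifiers that share 97.5% of the exonic bases of one of them, and these held 0 and 56 reads over all libraries, so no value is given for it.

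**Figure D4:**
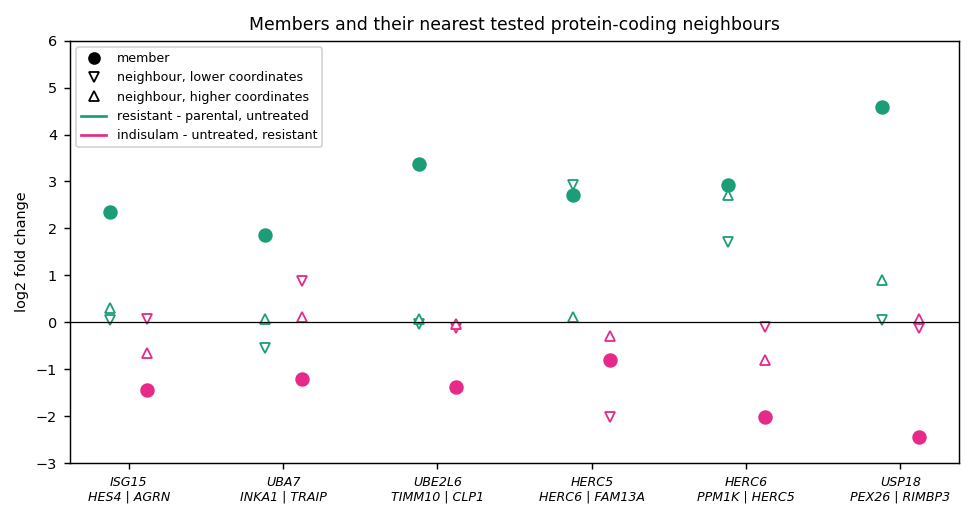
Log2 fold changes (vertical axis) of the 6 genes (filled) and of the nearest tested protein-coding gene on each side (open triangles), between the untreated lines and with the drug in resistant cells. Apart from HERC5 and HERC6, which are neighbours of each other, PPM1K (1.71) is the furthest of the neighbours from 0 between the untreated lines.

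The members were then set beside other genes of ubiquitin-like conjugation. Of all genes tested, 29.9% were called lower between the untreated lines and 24.9% higher on the drug in resistant cells. Of 10 other enzymes that act on ISG15 or have been linked to it, 3 were called higher and 2 lower in resistant untreated cells, with a median log2 fold change of 0.02. TRIM25, a ligase for ubiquitin and ISG15, was higher by 0.79 (adjusted p 1.5e-17) and fell by 0.55 log2 units on the drug (adjusted p 6.8e-14), from 304 to 207 CPM. ARIH1, another ligase, was not called in either comparison (0.04 and 0.03). USP2 went from 0.342 to 1.29 CPM between the untreated lines, was higher by 1.91 (adjusted p 4.6e-09) and rose by a further 0.68 on the drug (adjusted p 0.00035), but USP2-AS1 covers 25.2% of its exonic bases on the opposite strand and held more reads.

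The 9 other E1 subunits and enzymes had a median log2 fold change of -0.01 between the untreated lines, with 3 higher and 2 lower, and of -0.17 with the drug in resistant cells, with 1 higher and 7 lower. The largest of these falls were those of NAE1, a subunit of the NEDD8 E1, and ATG7, by 0.48 each. The 10 other E2 genes had medians of 0.02 and -0.05, with 4 higher and 1 lower between the untreated lines and 2 higher and 3 lower on the drug. UBE2L3, the closest relative of UBE2L6, was not called between the untreated lines (0.05, adjusted p 0.137). It was lower with the drug in resistant cells (-0.12, adjusted p 0.0013). Between the lines on the drug, it was lower in the resistant line (-0.28, adjusted p 1.3e-08). Of 13 tested genes for ubiquitin and other modifiers, 3 were higher and 4 lower between the untreated lines (median -0.02), and none was higher and 8 were lower on the drug (median -0.11). UFM1 had the largest of these falls, 0.22 log2 units, from 71.7 to 61.5 CPM. UBD, which overlaps another gene over most of its exons, had no reads. Among HERC1, HERC2 and HERC4, only HERC4 was called between the untreated lines (-0.80, adjusted p 8.6e-17). Between the lines on the drug, HERC2 was called as well (-0.33, adjusted p 0.00038). With the drug in resistant cells only HERC4 was called, as higher (0.12, adjusted p 0.0033).

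**Figure D5:**
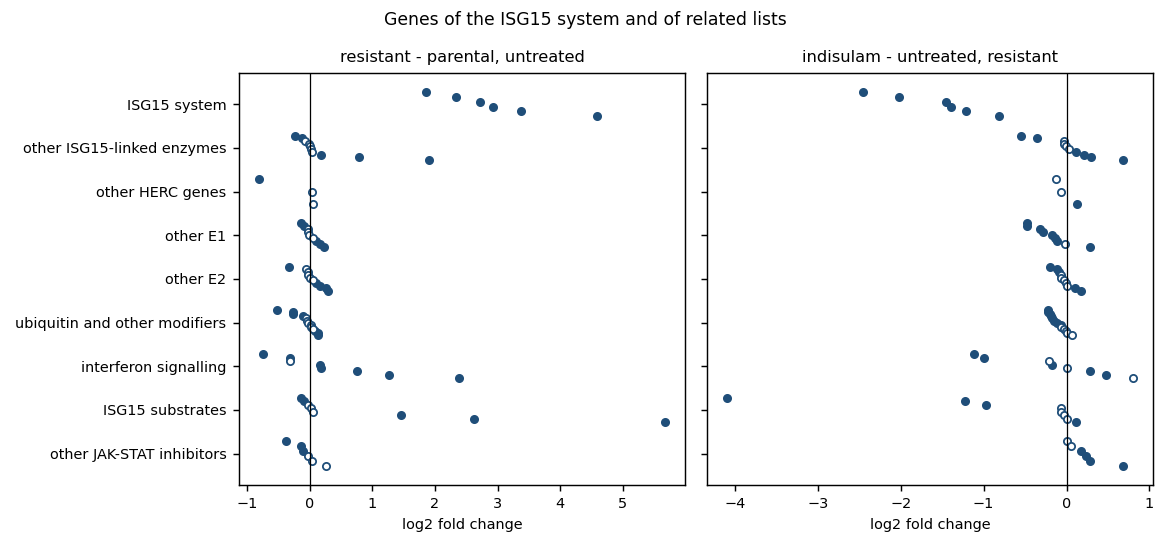
Log2 fold changes (horizontal axes) of the tested genes of each list between the untreated lines (left) and with the drug in resistant cells (right), with filled points for called genes. The ISG15 system spans 1.86 to 4.58 on the left and -2.45 to -0.81 on the right. The points of the other E1, E2 and modifier lists reach no further than -0.52 (UBL5). In the remaining lists, MX1 lies beyond every member on both sides (5.67 and -4.09). RIGI (2.63), IRF9 (2.38) and USP2 (1.91) lie within the span of the members on the left. EIF2AK2 (-1.23), IRF9 (-1.12), STAT2 (-0.99) and RIGI (-0.97) lie within it on the right.

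The signalling that is known to drive these genes was read from the same fit. Of 8 genes from the interferon receptors to the transcription factors, 5 were higher and 2 lower in resistant untreated cells (median 0.18), and 2 were higher and 3 lower on the drug in that line (median -0.09). Among the called genes, STAT2 and IRF9 had the largest changes in both comparisons. STAT2 averaged 39.1 CPM off and 23.8 CPM on the drug in the parental line, and 93.9 CPM off and 47.5 CPM on it in the resistant line. It differed by 1.26 and -0.99 log2 units in the same order of comparisons (adjusted p 1.4e-15 and 3.5e-13). IRF9 differed by 2.38 and -1.12 (adjusted p 7.5e-14 and 3e-08), at 4.35 CPM or less, and 23.9% of its exonic bases are shared with a read-through gene on the same strand. In parental cells both also fell with the drug, by 0.71 and 0.74 log2 units.

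The receptor and kinase genes moved less. IFNAR1 was higher by 0.16 between the untreated lines (adjusted p 0.00052) and fell by 0.18 on the drug (adjusted p 3e-04). IFNAR2, the partner of USP18, went from 4.76 to 3.83 CPM between the untreated lines (-0.31, adjusted p 0.0115), and -0.21 on the drug (adjusted p 0.114). JAK1 was higher by 0.19 and rose by 0.28 on the drug, and TYK2 was lower by -0.75 (adjusted p 7.4e-05) with 0.01 on the drug (adjusted p 0.959). IFNLR1, the type III receptor, was higher by 0.75 and rose by 0.48 on the drug (adjusted p 8.9e-10 and 8.5e-07). IL10RB had 79 reads over all libraries, and it shares exons with a read-through gene that begins in IFNAR2, so IFNAR2 and IL10RB are uncertain. Of 6 other inhibitors of JAK-STAT signalling, none was called higher and 3 were lower between the untreated lines (median -0.07), and 4 rose on the drug and none fell (median 0.20). Among the latter were SOCS3, which rose by 0.28 (adjusted p 3.7e-05), and SOCS1, at 0.378 CPM off and 0.603 CPM on the drug (0.68, adjusted p 0.0313). USP18, also a brake on this pathway, moved the other way in both comparisons.

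Interferon transcripts were scarce. IFNB1 had no reads in the untreated parental libraries and 0 and 1 in the treated ones, against 9 and 5 in the untreated resistant libraries and 2 and 5 in the treated ones. IFNL1 had 2 and 1, 0 and 0, 12 and 8, and 5 and 8 reads in the same order. Both were thus seen mainly in the resistant line, but neither passed the filter on low counts, so no test was made. IFNL2 and IFNG had no reads in any library, which allows up to 3 reads, or 0.0278 to 0.046 CPM, and at this depth absence cannot be claimed. No limit is given for IFNA1, also without reads, since MIR31HG covers 63.4% of its exonic bases on the opposite strand and its reads may have been set aside as ambiguous. IFNE, the one interferon gene that was tested, went the opposite way, from 2.15 CPM in the untreated parental line to 0.688 CPM in the untreated resistant line (-1.65, adjusted p 1.4e-09).

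Finally, genes whose proteins have been reported to carry ISG15 were examined. Of 8, 3 were higher and 2 lower in resistant untreated cells (median 0.04), and 1 was higher and 3 lower on the drug (median -0.07). The 3 that fell were MX1 (-4.09), EIF2AK2 (-1.23) and RIGI (-0.97), all of which are themselves interferon-induced and were higher in resistant untreated cells, by 5.67, 1.46 and 2.63 log2 units. MX1, an antiviral GTPase, was at 0.457 CPM in untreated parental cells, 23.3 CPM in untreated resistant cells and 1.36 CPM in resistant cells on the drug. Between the untreated lines the other targets stood closer to 0, with IRF3 at -0.14, EIF4E2 at -0.09, TSG101 at 0.05, BECN1 at 0.03 and UBE2N at -0.03. For extracellular ISG15, the receptor subunit ITGAL had at most 3 reads in any library. ITGB2 averaged 0.809 and 0.93 CPM in the untreated parental and resistant lines (0.22, adjusted p 0.322), and ITGB2-AS1 on the opposite strand held more reads. Protein and conjugates of ISG15 were not measured in these data.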

How the data were processed

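Polyadenylated RNA was made into stranded libraries and sequenced paired-end. For each library the authors deposited unnormalized read counts by gene, in which 60675 Ensembl genes are followed by 9 lines that name no gene. Those lines, 37.88 to 44.94% of listed reads, include duplicates (14.07 to 18.43%), ambiguous and low-quality reads, and were left out. Per the study's methods reads were trimmed with SeqPurge and aligned to GRCh38 with HISAT2 (2.2.1 per the submitters' processing notes, which also name Picard and HTSeq). The strand setting and annotation release of the counting are not given in the sources used here, so reads of overlapping genes may be lost or split. Symbols, positions and exonic lengths came from GENCODE 44 (60419 identifiers matched).

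The test was that of edgeR 4.0.16 (R 4.3.3) on these counts, with filterByExpr (16661 genes), TMM scaling and a robust quasi-likelihood fit of the 4 group means (4 residual degrees of freedom). SE is the log2 fold change divided by the square root of F. CPM are deposited counts divided by TMM-scaled library sizes. Profiles used log2 CPM with a prior count of 2. The code was tested on simulated data. Same-numbered libraries did not deviate together (correlations -0.058 to 0.027 over 6 pairs of groups), so no block was used. Alternatives were DESeq2 1.42.0, its size factors, library totals, genes kept without a filter or only from a mean CPM of 1, a fit of just the libraries compared, the replicate block and each library left out. Named genes were the members, listed genes past 1 log2 unit in resistant cells on the drug or between the untreated lines (else the largest call), the interferon signalling list, 2 nearest profiles per member, chromosomal neighbours and overlapping genes. Other listed genes named in the text were chosen after their values were seen. The members and lists were chosen with earlier results of these data known. Some genes are not reported here and were left out of the lists and their counts. Figures were drawn with matplotlib 3.10.9. Intervals and limits of 3 reads cover counting error only.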

Additional observations from a re-analysis of the deposited data

Results flagged for a closer look

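The drug response differed between the lines by the test of the interaction for 4 of the 6 members. The difference (resistant minus parental) was -1.28 log2 units for ISG15, -1.44 for UBE2L6, -1.11 for HERC6 and -2.25 for USP18. Parental cells had been on the drug for 18 h and were compared with untreated parental cells. Resistant cells had been on it without a break and were compared with resistant cells after a drug holiday. Line, length of exposure and the holiday of the reference cells thus cannot be told apart in these values.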

How the results depend on the processing

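Between the lines, on or off the drug, in resistant cells with the drug, and for adapted against naive cells, every member kept its direction and call in all 90 values per comparison from the alternatives. With the drug in parental cells, ISG15 lost its call in 4 alternatives, and UBE2L6, which was not called, changed sign with library totals (-0.011), when genes were kept from a mean CPM of 1 (-0.001) and without parental indisulam replicate 1 (-0.047, the lowest of -0.047 to 0.116 with 1 library left out). The interaction of HERC5 passed the threshold with library totals (0.37, adjusted p 0.0382), with genes kept from a mean CPM of 1 (0.34, adjusted p 0.05) and without parental indisulam replicate 1 (0.48). With the replicate block 3 members were called in parental cells against 4, and the block changed no other member's call (9537 genes called there against 9690, and 8206 against 8351 for the interaction). Library totals shifted the median interaction of all genes by 0.115 log2 units, and moved the share of calls that were higher from 54.3 to 42.0% for the drug in parental cells, from 49.1 to 59.7% in resistant cells and from 45.2 to 65.8% for the interaction. With the longest transcript as length, the order of the members was the same in 3 of the 4 groups, and HERC5 and HERC6 changed places in resistant indisulam cells. The mean over all libraries, which weighs unlike groups together and gives no order, was then 36.3 CPM per kb for ISG15, 15.3 for UBE2L6, 4.2 for HERC6, 2.93 for USP18, 2.1 for HERC5 and 0.736 for UBA7. Depth limits UBA7, HERC5 and USP18 in parental cells, with 55 to 276 reads.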
